A study of Homo sapiens with 6 samples.

Results

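ACVRL1 and 9 further genes of transforming growth factor beta (TGF-beta) signalling were followed in bulk RNA sequencing of 6 libraries whose labels give liver as tissue and HepG2, a long-used human hepatic tumour line, as cells. The 10 genes were taken by symbol from a table of 60612 genes. ACVRL1 was chosen by its measured level, which had already been seen to differ between the groups in these counts, so its group difference is given as a description with no test. The other 9 were listed as its relatives: the type I receptors TGFBR1, ACVR1, ACVR1B and BMPR1A, the type II receptors TGFBR2 and BMPR2, the co-receptors ENG and TGFBR3, and the signal carrier SMAD3. The series concerns stable lines made to overexpress ABCF1, an ATP-binding cassette protein that works at the ribosome in translation initiation, in forms with lysines changed to arginines. The labels give 3 libraries with the genotype ABCF1 and 3 with the genotype NC-1, and do not say which form of ABCF1 the first group carries, what NC-1 stands for or whether replicates were grown apart. The ABCF1 transcript went against its label, at 106 ± 4.05 CPM (counts scaled to a common library size) in the libraries labelled ABCF1 and 158 ± 3.62 CPM in those labelled NC-1 (SD, n = 3 each), so the groups are called by their labels throughout.

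Ligands of the TGF-beta family bind a pair of type II receptors, which then phosphorylate a pair of type I receptors in a short glycine- and serine-rich segment (the GS segment) just before the kinase domain. Type I receptors phosphorylate SMAD proteins that enter the nucleus with SMAD4. TGFBR1 and ACVR1B act mainly on SMAD2 and SMAD3, whereas ACVRL1, ACVR1 and BMPR1A act mainly on SMAD1, SMAD5 and SMAD9. ACVRL1, also called ALK1, is best known from the endothelium, where it responds to the ligands GDF2 (BMP9) and BMP10 together with the co-receptor ENG, and where loss of either gene causes hereditary haemorrhagic telangiectasia.

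The coding stretch over the GS segment is shown for the 5 type I receptors because the base composition of the transcripts ran parallel to the fold changes described below. Capitals mark G and C. Each stretch holds 90 bases of the transcript with the longest coding sequence in GENCODE 29 (GRCh38), aligned on the same 5 codons of the segment, and each crosses an exon junction.
ACVRL1: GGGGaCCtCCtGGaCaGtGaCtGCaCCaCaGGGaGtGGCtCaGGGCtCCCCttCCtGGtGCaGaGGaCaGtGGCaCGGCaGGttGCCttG
TGFBR1: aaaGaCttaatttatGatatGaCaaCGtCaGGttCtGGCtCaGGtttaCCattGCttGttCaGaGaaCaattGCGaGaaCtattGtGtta
ACVR1: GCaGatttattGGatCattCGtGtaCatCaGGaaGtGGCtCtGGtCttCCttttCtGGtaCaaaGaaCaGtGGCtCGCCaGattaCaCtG
ACVR1B: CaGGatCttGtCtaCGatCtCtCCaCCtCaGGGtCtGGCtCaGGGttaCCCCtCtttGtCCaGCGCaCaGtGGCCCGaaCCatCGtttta
BMPR1A: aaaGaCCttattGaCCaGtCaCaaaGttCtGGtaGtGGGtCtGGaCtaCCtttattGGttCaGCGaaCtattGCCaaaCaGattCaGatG
The ACVRL1 stretch had G or C at 59 of 90 bases, against 50 in ACVR1B, 41 in ACVR1, 38 in BMPR1A and 33 in TGFBR1. Over the whole coding sequence the G and C content was 61.2% in ACVRL1, 53.6% in ACVR1B, 47.9% in ACVR1, 44.8% in TGFBR1 and 44.3% in BMPR1A. ACVRL1 was identical to ACVR1 at 60 of the 90 bases, to ACVR1B at 57, and to TGFBR1 and BMPR1A at 48 each.

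Library totals ran from 62323034 to 77394510 counts. ABCF1 replicate 3 and NC-1 replicate 2 lay on one side of the first principal component and the other 4 libraries on the other, a division called the library set here that no label accounts for. Relative to each gene's mean, GC-rich transcripts were higher in each library labelled ABCF1 (Spearman rho across 16357 genes from 0.24 to 0.33) and lower in each labelled NC-1 (-0.31 to -0.20). These correlations are across genes, which are not independent replicates. Neither the labelled tissue nor the labelled hepatic line, HepG2, was borne out by hepatocyte markers. Of 12 such genes 11, ALB, AHSG and SERPINA1 among them, were under 0.1 RPKM (read density, corrected for gene length and depth). HNF4A alone was well above that level at a mean of 21.3 RPKM. Which cells the libraries came from was not tested. The 12 summed to 18.5 to 31.3 RPKM in libraries labelled ABCF1 and 15.1 to 26.9 RPKM in those labelled NC-1. The epithelial keratins KRT8, KRT18 and KRT7 averaged 759, 676 and 141 RPKM over the 6 libraries, and the adhesion molecule EPCAM 6.002 RPKM. The other 2 of the 6 epithelial markers, CDH1 and KRT19, averaged 0.045 and 0.057 RPKM.

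ACVRL1 was the least abundant of the 10 genes, and its fold change on the counts was the largest of them in size. On log2(RPKM + 1), which understates low genes, its difference of 0.24 was smaller in size than those of TGFBR1 (-0.43), TGFBR3 (-0.39), TGFBR2 (-0.36) and BMPR1A (-0.28). It had 332, 262 and 273 counts in ABCF1 replicates 1, 2 and 3, and 221, 135 and 155 counts in NC-1 replicates 1, 2 and 3. Scaled to library size this was 5.28, 3.79 and 3.77 CPM in the libraries labelled ABCF1 and 3.09, 2.12 and 2.25 CPM in those labelled NC-1. The groups did not overlap, and the nearest libraries were ABCF1 replicate 3 and NC-1 replicate 1. Their exact Poisson 95% intervals, 3.34 to 4.24 CPM and 2.69 to 3.52 CPM, overlapped. These intervals cover counting error only. The group means were 4.28 ± 0.87 CPM in libraries labelled ABCF1 and 2.49 ± 0.52 CPM in those labelled NC-1 (SD, n = 3 each), a ratio of 1.72 and a fitted log2 fold change of 0.78 (SE 0.23). Within the library set of ABCF1 replicate 3 and NC-1 replicate 2, the values were 3.77 and 2.12 CPM. Within the other set they were 5.28 and 3.79 CPM against 3.09 and 2.25 CPM. Groups that do not overlap have the same direction in any such division. In bulk RNA, more cells with the transcript and more transcript per cell cannot be told apart.

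**Figure D1:**
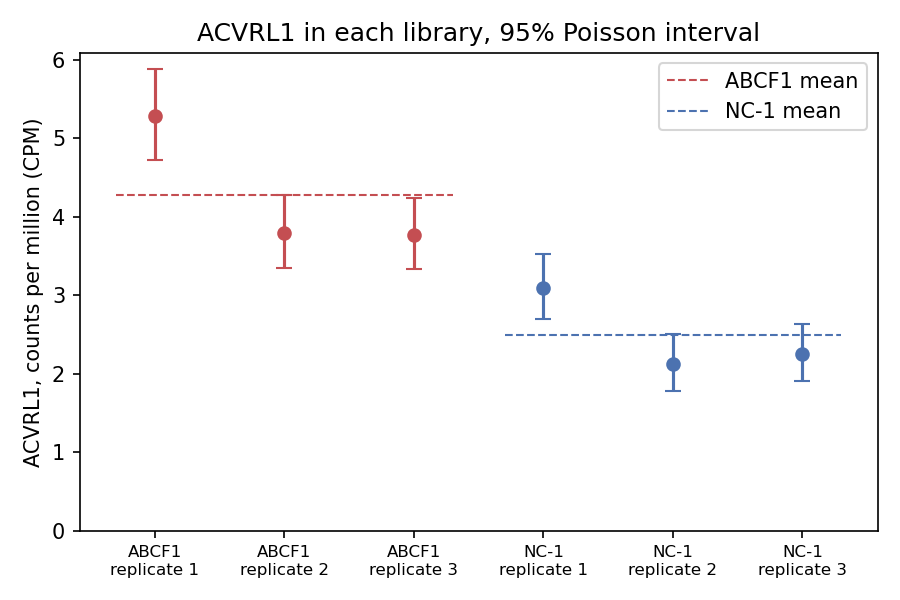
ACVRL1 in CPM (y axis, starting at 0) in each of the 6 libraries (x axis), with exact Poisson 95% intervals as bars and the group mean as a dashed line. The 3 libraries labelled ABCF1 lie between 3.77 and 5.28 CPM, all above the 3 labelled NC-1 at 2.12 to 3.09 CPM.

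ACVRL1 (ENSG00000139567) occupies 51906908 to 51923361 of chromosome 12, plus strand of GRCh38, and no listed gene overlaps it. ACVR1B, another type I receptor, follows on the same strand after a gap of 28337 bases with no listed gene wholly inside it. ACVR1B had 44.3 ± 6.86 CPM in the libraries labelled ABCF1 and 41.4 ± 5.62 CPM in those labelled NC-1 (SD, n = 3 each). Its groups overlapped, with a log2 fold change of 0.10 (SE 0.15, edgeR adjusted p = 0.80 over 16545 genes). The difference between the folds of these neighbours was not tested, since ACVRL1 was picked for its own.

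In GRCh38 coordinates TGFBR1 spans 99104038 to 99154192 and ENG 127815013 to 127854658 of chromosome 9, ACVR1 spans 157736444 to 157876330 and BMPR2 202376327 to 202567751 of chromosome 2, and ACVR1B spans 51951699 to 51997078 of chromosome 12. BMPR1A spans 86756601 to 86932825 of chromosome 10, TGFBR2 30606601 to 30694142 of chromosome 3, TGFBR3 91680343 to 91906335 of chromosome 1 and SMAD3 67063763 to 67195169 of chromosome 15.

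The 2 deposited tables gave ACVRL1 gaps of different size. In RPKM it was at 1.18, 0.87 and 0.83 in ABCF1 replicates 1 to 3 and at 0.82, 0.56 and 0.58 in NC-1 replicates 1 to 3. The RPKM groups did not overlap but nearly touched, at 0.825 in ABCF1 replicate 3 and 0.821 in NC-1 replicate 1, and the ratio of means was 1.46 where counts gave 1.72. The number of counts per RPKM unit, scaled to library size, which acts as the transcript length in kilobases behind the RPKM, was 4.26 to 4.42 for ACVRL1 in the libraries labelled ABCF1 and 3.84 to 4.03 in those labelled NC-1. That quantity did not overlap between the groups for ACVRL1 and overlapped for the other 9 members. The ACVRL1 counts that chose the gene enter it, so this contrast is a description only. Among 12121 genes of 2 CPM or more, counts per RPKM unit lay wholly higher in the libraries labelled ABCF1 for 1.82% and wholly lower for 2.26%. A shift in the lengths of ACVRL1 transcripts counted was not tested.

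Of the co-receptors, ENG was wholly higher in CPM in the libraries labelled ABCF1 and TGFBR3 wholly lower. Of all tested genes 10.7% were wholly higher and 12.4% wholly lower. Neither co-receptor passed the test. ENG, the endoglin co-receptor that partners ACVRL1, had 120, 122 and 113 CPM in ABCF1 replicates 1, 2 and 3 and 106, 98.0 and 108 CPM in NC-1 replicates 1, 2 and 3. Each library labelled ABCF1 lay above each labelled NC-1, and the nearest were replicate 3 of both groups. The log2 fold change was 0.18 (SE 0.09, 95% interval -0.02 to 0.38, edgeR adjusted p = 0.37). In RPKM the ENG groups overlapped, at 32.0 to 36.7 in libraries labelled ABCF1 and 30.1 to 34.7 in those labelled NC-1. A long noncoding RNA on the opposite strand within ENG, AL162586.1, took 20 to 51 counts a library against 6237 to 8422 for ENG. TGFBR3, betaglycan, which presents TGF-beta to the type II receptor, had 45.5, 40.1 and 30.4 CPM in the libraries labelled ABCF1 and 48.5, 45.5 and 51.8 CPM in those labelled NC-1. Its groups nearly touched, at 45.51 CPM in ABCF1 replicate 1 and 45.52 CPM in NC-1 replicate 2, and they overlapped in RPKM. The log2 fold change was -0.33 (SE 0.15, 95% interval -0.68 to 0.02, edgeR adjusted p = 0.36).

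Of the other type I receptors, TGFBR1, the receptor for TGF-beta itself, had the lowest fold change of the 10 genes. It had 205, 199 and 165 CPM in ABCF1 replicates 1, 2 and 3 and 251, 238 and 243 CPM in NC-1 replicates 1, 2 and 3. The groups did not overlap, and ABCF1 replicate 3 was the lowest library. The log2 fold change was -0.36 (SE 0.11, 95% interval -0.61 to -0.12) and the edgeR adjusted p of 0.26 did not pass. The DESeq2 Wald test called it, with an adjusted p of 0.048, and the range over all alternatives was 0.0021 to 0.62. BMPR1A, a receptor for bone morphogenetic proteins (BMPs), had 28.9, 26.8 and 25.2 CPM in the libraries labelled ABCF1 and 35.9, 30.3 and 32.1 CPM in those labelled NC-1. Its groups did not overlap either, and its log2 fold change was -0.28 (SE 0.11, 95% interval -0.53 to -0.04, edgeR adjusted p = 0.29). ACVR1, another BMP receptor, was at 10.5 ± 0.97 CPM in libraries labelled ABCF1 and 11.6 ± 0.82 CPM in those labelled NC-1 (SD, n = 3 each), with overlapping groups and a log2 fold change of -0.14 (SE 0.12, edgeR adjusted p = 0.63).

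The type II receptors and SMAD3 overlapped between the groups. TGFBR2, which binds TGF-beta and activates TGFBR1, had 28.7, 30.5 and 19.3 CPM in ABCF1 replicates 1, 2 and 3 and 31.8, 28.1 and 37.2 CPM in NC-1 replicates 1, 2 and 3. BMPR2, the type II receptor for BMPs, had 30.1, 24.6 and 18.8 CPM in the libraries labelled ABCF1 and 31.2, 24.7 and 34.8 CPM in those labelled NC-1. In both genes ABCF1 replicate 3 was the lowest of the 6 libraries and NC-1 replicate 3 the highest. Their log2 fold changes were -0.31 (SE 0.19, 95% interval -0.74 to 0.12, edgeR adjusted p = 0.47) for TGFBR2 and -0.30 (SE 0.19, 95% interval -0.75 to 0.14, edgeR adjusted p = 0.48) for BMPR2. Without ABCF1 replicate 3 the log2 fold change of TGFBR2 was -0.12 and that of BMPR2 -0.14, and without NC-1 replicate 3 they were -0.20 and -0.19. SMAD3, which carries the signal of TGFBR1 and ACVR1B, was at 50.9 ± 5.17 CPM in libraries labelled ABCF1 and 49.1 ± 5.25 CPM in those labelled NC-1 (SD, n = 3 each). Its log2 fold change was 0.05 (SE 0.12, edgeR adjusted p = 0.87).

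**Figure D2:**
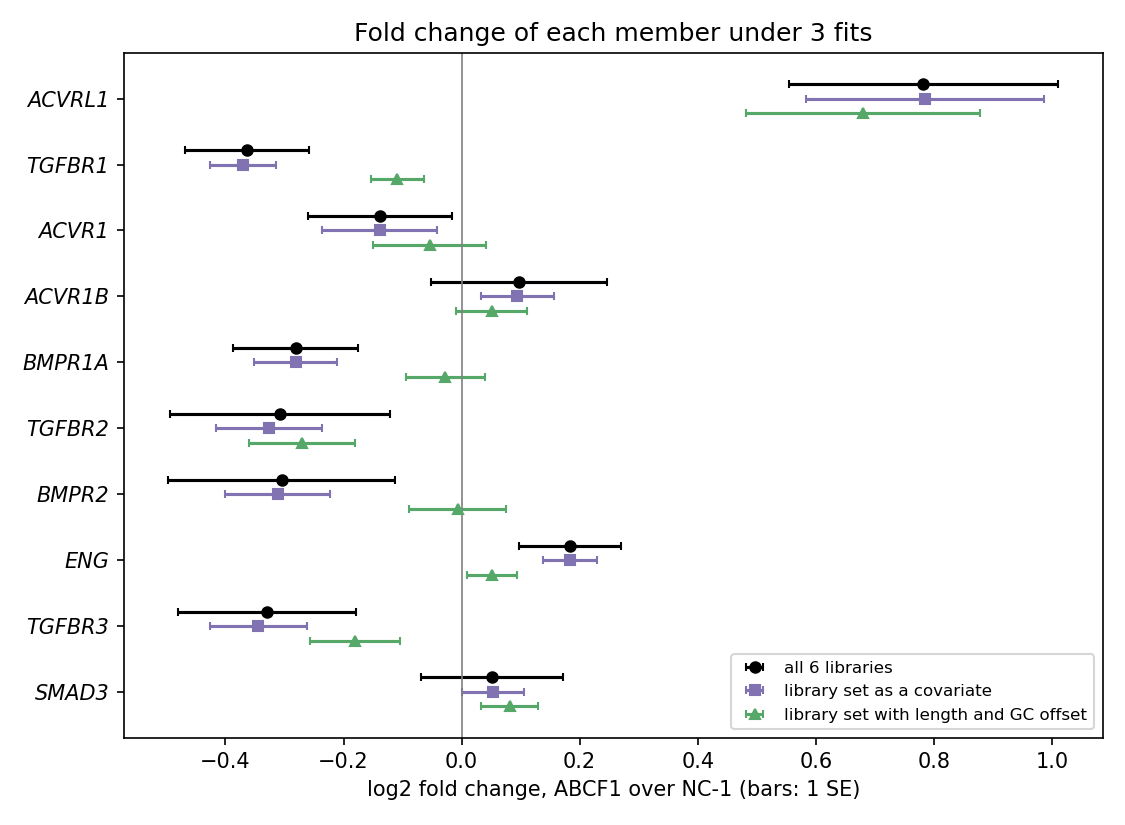
Log2 fold change of each member (y axis), ABCF1 over NC-1 (x axis), from all 6 libraries, with the library set as a covariate, and with the library set and a length and GC offset. Bars are 1 SE. ACVRL1 stays between 0.68 and 0.79 in these fits, and the offset moves TGFBR1 from -0.37 to -0.11 and BMPR2 from -0.31 to -0.01.

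None of the 9 members other than ACVRL1 was called by edgeR at an adjusted p under 0.05, and neither was any of the 16545 genes tested, 0% in each direction. At an unadjusted p under 0.05, 0 of the 9 were higher and 2 (TGFBR1 and BMPR1A) lower, where 6.27% and 8.54% of all tested genes were. limma-voom called 0 of the 9. The DESeq2 Wald test called 1 of them as lower, where it called 2.19% higher and 3.45% lower of the 11089 genes it gave an adjusted p. All 10 members passed the filter on low counts. Groups that did not overlap in CPM were found for 1 of the 9 in the higher direction and 3 in the lower, against 10.7% and 12.4% of all tested genes. In RPKM, 2 of the 9 (TGFBR1 and BMPR1A) were wholly lower and 0 wholly higher, against 16.3% and 4.74% of all tested genes. The median log2 fold change of the 9 was -0.28, and that of all tested genes 0.00050.

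The signs of the members divided by the GC content of their transcripts. The 4 with more than 50% GC in the longest annotated transcript, ENG (63.3%), ACVRL1 (57.6%), ACVR1B (52.9%) and SMAD3 (50.4%), all had positive log2 fold changes. ACVRL1 was picked for its gap, so its sign was known beforehand. ACVR1B (0.10, SE 0.15) and SMAD3 (0.05, SE 0.12) were below 0 with library size as the only scaling. With each library left out in turn they ran from -0.0079 to 0.22 and from -0.034 to 0.14. The 6 with 50% GC or less, TGFBR2 (47.4%), ACVR1 (44.6%), TGFBR3 (43.8%), BMPR1A (40.6%), TGFBR1 (39.0%) and BMPR2 (37.6%), all had negative log2 fold changes. Tested genes with an annotated GC content leaned the same way: 73.8% of the 7736 genes over 50% GC were positive, with a median of 0.14, and 28.7% of the 8621 others, with a median of -0.14.

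**Figure D3:**
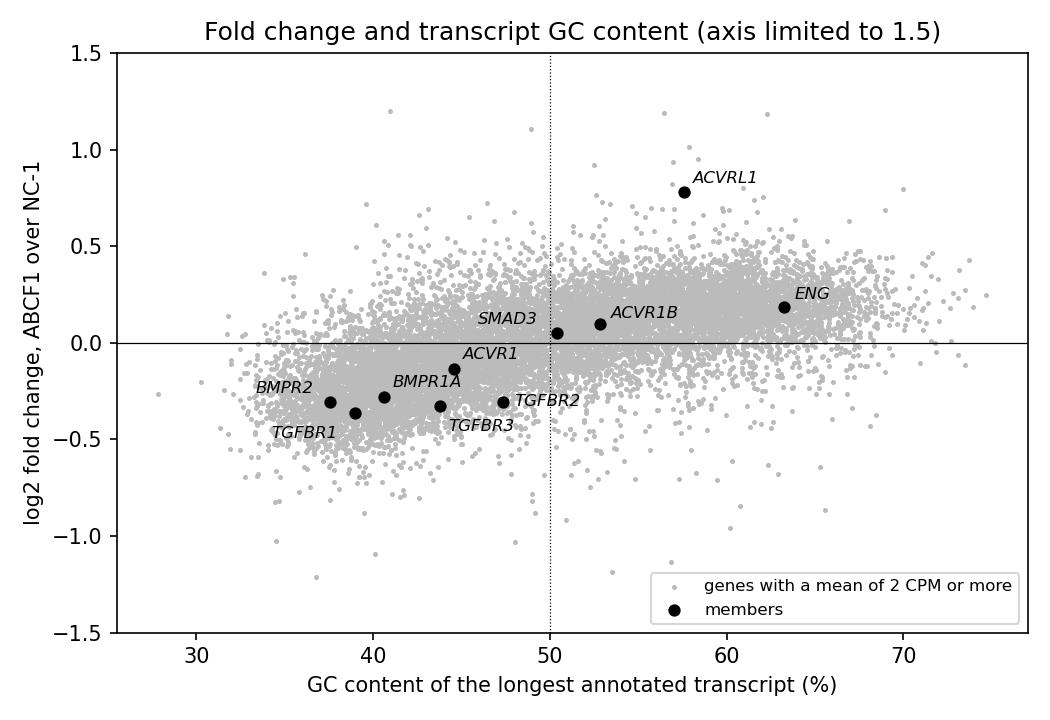
Log2 fold change, ABCF1 over NC-1 (y axis), against the GC content of the longest annotated transcript in percent (x axis), for 12087 genes of 2 CPM or more (grey, with 11 more beyond the axis) and the 10 members (black). Fold changes of all genes rise with GC content, and ACVRL1 lies at 57.6% GC and 0.78.

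Removing each library's trend with transcript length and GC content, together with the library set as a covariate, shrank most of the members' fold changes. TGFBR1 then had a log2 fold change of -0.11 (SE 0.04, edgeR adjusted p = 0.19), ENG of 0.05 (SE 0.04, edgeR adjusted p = 0.55), BMPR1A of -0.03 (SE 0.07, edgeR adjusted p = 0.86) and BMPR2 of -0.0063 (SE 0.08, edgeR adjusted p = 0.98). TGFBR2 had the most negative value of the 9 in this fit, -0.27 (SE 0.09, edgeR adjusted p = 0.11), and TGFBR3 was at -0.18 (SE 0.08, edgeR adjusted p = 0.20). ACVRL1 was at 0.68 (SE 0.20), given without a test. The 4 members over 50% GC stayed positive and the 6 others negative. Of all genes in this fit, 57.6% of those over 50% GC and 49.6% of the others were positive. The fold changes of BMPR1A, BMPR2, ACVR1 and ACVR1B were smaller in size than their SE. The part of GC content in the members' signs was not tested. The fit called 0 of the 9, where 5.09% of genes were called higher and 1.69% lower. With the library set alone, 1 of the 9 (ENG) was called higher and 5 (TGFBR1, BMPR1A, TGFBR2, BMPR2 and TGFBR3) lower, where 12.9% and 12.5% of genes were. Leaving out ABCF1 replicate 3 and NC-1 replicate 2 gave 0 higher calls among the 9 and 1 lower, TGFBR1, where 5.68% and 5.1% of genes were called. Since the set comes from the counts tested, p-values with it are not those of a planned design.

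In RPKM, the scale on which genes can be compared with each other, ENG (mean 33.8 over the 6 libraries) and TGFBR1 (31.6) stood above the rest. ENG was the higher of this pair in the 3 libraries labelled ABCF1 and TGFBR1 in the 3 labelled NC-1, and their ranges overlapped. The next gene, ACVR1B, was at 8.77 RPKM, and its range did not reach that of TGFBR1. SMAD3 (7.24 RPKM), TGFBR3 (6.59), TGFBR2 (5.92), BMPR1A (4.34), ACVR1 (3.06) and BMPR2 (2.21) followed, each overlapping its neighbour in this order. ACVRL1 was last at 0.81 RPKM, below BMPR2 in all 6 libraries and with no overlap. ENG RPKM was 31.2 to 41.0 times that of ACVRL1 in the libraries labelled ABCF1 and 42.3 to 57.3 times in those labelled NC-1. The groups thus did not overlap in that ratio, in which the ACVRL1 values that chose the gene enter.

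**Figure D4:**
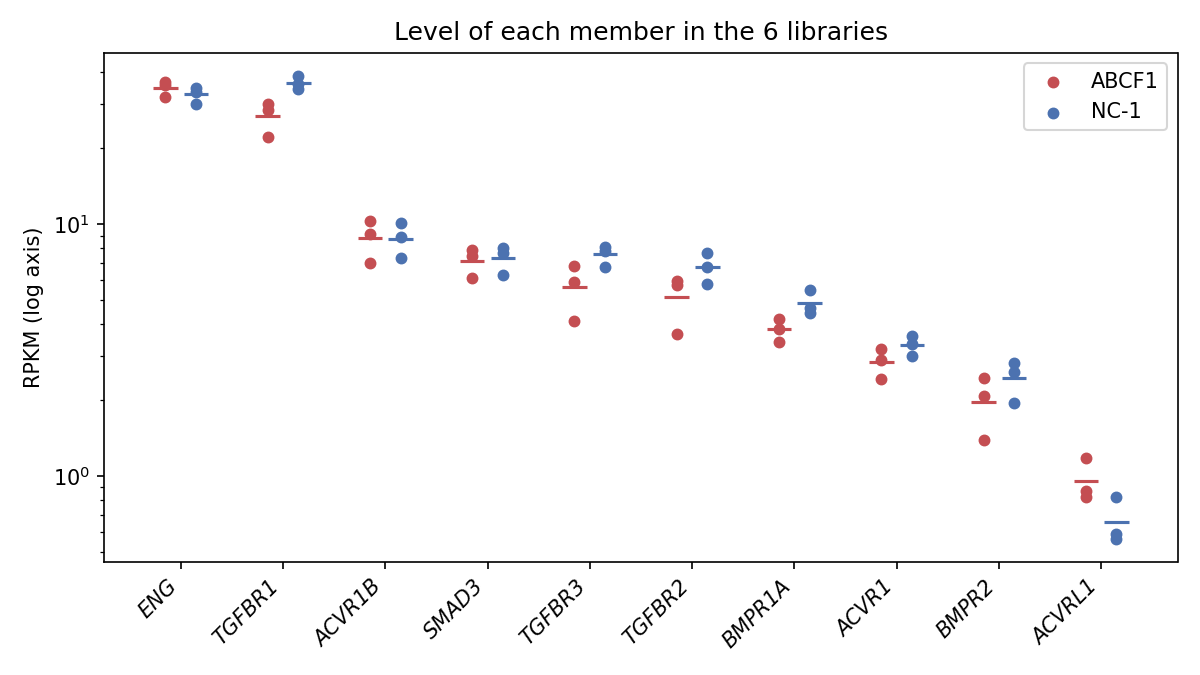
RPKM (y axis, log scale) of the 10 members (x axis, from the highest mean to the lowest), with a point for each library, libraries labelled ABCF1 left of those labelled NC-1, and a line at each group mean. ENG and TGFBR1 lie between 22.2 and 38.7 RPKM, 7 genes lie between 1.39 and 10.3 RPKM, and ACVRL1 lies between 0.56 and 1.18 RPKM.

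The endothelial cell, the best known site of ACVRL1, was looked for by 13 marker genes. KDR, EMCN and CLEC14A had 0 counts in all 6 libraries, which allows up to 0.041 to 0.048 CPM a library (3 counts), and 8 of the 13, PECAM1, VWF, TIE1 and TEK included, averaged under 0.1 RPKM. The summed level of the 13 was 50.5 to 51.5 RPKM in libraries labelled ABCF1 and 47.0 to 49.8 RPKM in those labelled NC-1. The groups did not overlap in that sum. Most of it was the adhesion molecule ESAM, at 40.7 to 41.8 RPKM in libraries labelled ABCF1 and 36.0 to 38.4 RPKM in those labelled NC-1. Without ESAM the other 12 summed to 9.64 to 10.6 RPKM in libraries labelled ABCF1 and 10.4 to 11.5 RPKM in those labelled NC-1. The part of these genes in the ACVRL1 values was not tested. The transcription factors SOX17, SOX18 and ERG averaged 5.35, 2.72 and 1.86 RPKM. Fibroblast and stellate genes summed to 15.97 to 23.02 RPKM in libraries labelled ABCF1 and 16.2 to 22.6 RPKM in those labelled NC-1, with COL1A1 at 12.9 RPKM, ACTA2 at 4.41 RPKM and PDGFRB at 2.11 RPKM. The other 6 of these 9 genes averaged under 0.1 RPKM, among them COL3A1, DCN, LUM and THY1, and COL1A2 and PDGFRA were at 0 in all 6 libraries. Leukocyte and macrophage genes summed to 2.42 to 3.45 RPKM and 2.44 to 3.13 RPKM in the same order of groups, nearly all of it CSF1R, and 3 of these 7 had 0 counts throughout. Epithelial genes summed to 1517 to 1860 RPKM in libraries labelled ABCF1 and 1452 to 1681 RPKM in those labelled NC-1.

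Beyond the 10 members, 114 other genes of the pathway were listed, of which 87 were tested, and edgeR called 0 of them. Their median log2 fold change was -0.07, with 35 positive and 52 negative, where 50.1% of all tested genes were positive. At an unadjusted p under 0.05, 7 were higher and 13 lower, against 6.27% and 8.54% of all tested genes. limma-voom called 0, where it called 0% of all genes. By the DESeq2 Wald test 0 were called as higher and 5 as lower, where it called 2.19% and 3.45% of the 11089 genes it gave an adjusted p. Those 5, ZFYVE16, WWP1, USP15, SKIL and ZEB1, had fold changes from -0.56 to -0.32 in that test on the log2 scale. With the library set and the length and GC offset, edgeR called 3 higher and 1 lower, where it called 5.09% and 1.69% of all genes. These calls included TIMP1 (0.20, adjusted p = 0.014) and TGIF1 (0.27, adjusted p = 0.047) as higher and ZFYVE16 (-0.26, adjusted p = 0.020) as lower on the log2 scale.

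Of 13 further receptors and co-receptors, 10 were tested and all 10 had negative log2 fold changes, with a median of -0.23. Of all tested genes 50.1% were positive, of those with 50% GC or less 28.7%, and of those over 50% GC 73.8%. Transcript GC content was 38.7% in ACVR2A, 39.2% in CD109, 44.7% in NRP1, 45.7% in ACVR2B, 47.7% in RGMB and 51.0% in BAMBI. With the library set and the length and GC offset, edgeR called 0 of the 10. The part of GC content in these signs was not tested. The type II receptors ACVR2B and ACVR2A averaged 1.04 and 0.51 RPKM, and the type I receptor ACVR1C was at or near 0. BAMBI, a receptor-like protein without a kinase that blocks the pathway, was at 45.9 ± 6.25 CPM in libraries labelled ABCF1 and 46.9 ± 4.27 CPM in those labelled NC-1. CD109, a TGF-beta co-receptor, was at 63.2 ± 9.84 CPM against 77.7 ± 8.89 CPM, and NRP1, neuropilin 1, at 32.7 ± 0.13 CPM against 36.5 ± 2.54 CPM, libraries labelled ABCF1 given before NC-1 (SD, n = 3 each). RGMB, a BMP co-receptor, was at 12.8 ± 2.04 CPM in libraries labelled ABCF1 and 13.4 ± 1.48 CPM in those labelled NC-1.

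Of 34 genes listed as ligands, 18 were tested, with 11 positive and 7 negative log2 fold changes and a median of 0.04. The list and these counts include the protease BMP1, with a log2 fold change of 0.25. GDF2 and BMP10, the ligands of ACVRL1 with the highest known affinity, had 0 counts in all 6 libraries, as did BMP3, BMP15, GDF3 and NODAL. TGFB1 was the most abundant ligand at 73.8 RPKM, with 241 ± 8.61 CPM in libraries labelled ABCF1 and 208 ± 3.31 CPM in those labelled NC-1. Its groups did not overlap, and its log2 fold change was 0.22 (SE 0.08, edgeR adjusted p = 0.29). INHBB, a subunit of activin B, was at 85.1 ± 1.94 CPM against 84.7 ± 8.69 CPM in the libraries labelled ABCF1 and NC-1. GDF15 was at 32.0 ± 3.56 CPM in libraries labelled ABCF1 and 27.9 ± 1.23 CPM in those labelled NC-1, and BMP1, a protease that processes procollagen and ligand antagonists, at 84.9 ± 4.08 CPM and 71.3 ± 8.11 CPM.

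Latency proteins and extracellular regulators numbered 22, of which 16 were tested, with 8 positive and 8 negative log2 fold changes and a median of -0.03. FSTL3, a follistatin-like protein that binds activins, was the most abundant at 214 RPKM, with 627 ± 54.2 CPM in libraries labelled ABCF1 and 549 ± 34.95 CPM in those labelled NC-1. FSTL1 was at 273 ± 23.5 CPM in libraries labelled ABCF1 and 333 ± 4.22 CPM in those labelled NC-1, without overlap. LTBP4 and LTBP3, which hold latent TGF-beta in the matrix, were at 207 ± 27.7 CPM and 159 ± 5.42 CPM in libraries labelled ABCF1, against 204 ± 21.1 CPM and 143 ± 1.90 CPM in those labelled NC-1.

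All 24 SMADs and regulators were tested, with 5 positive and 19 negative log2 fold changes and a median of -0.16. CPM ranges lay wholly lower in libraries labelled ABCF1 for 10 of the 24 and wholly higher for 2, against 12.4% and 10.7% of all tested genes. With the library set and the length and GC offset, edgeR called 1 of the 24 lower and 1 higher, where 1.69% and 5.09% of all genes were called. The part of GC content in the lower ranges was not tested. FKBP1A, which binds the GS segment of type I receptors and keeps them inactive, was at 205 ± 11.7 CPM in libraries labelled ABCF1 and 182 ± 7.80 CPM in those labelled NC-1. STRAP was at 204 ± 18.1 CPM against 226 ± 32.3 CPM, and PMEPA1 at 194 ± 15.999 CPM against 191 ± 12.8 CPM, in the libraries labelled ABCF1 and NC-1. TGIF1, a repressor of SMAD targets, was at 51.2 ± 0.74 CPM in libraries labelled ABCF1 and 47.4 ± 4.52 CPM in those labelled NC-1.

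Of 27 target genes of TGF-beta and BMP signalling, 25 were tested, with 13 positive and 12 negative log2 fold changes and a median of 0.0055. CPM ranges lay wholly higher in libraries labelled ABCF1 for 6 of the 25 and wholly lower for 2, against 10.7% and 12.4% of all tested genes. With the library set and the length and GC offset, edgeR called 2 of the 25 higher and 0 lower, where 5.09% and 1.69% of all genes were called. The targets named next were among those with the highest RPKM, and each was wholly higher in CPM. Transcript GC content was 57.9% in TIMP1, 64.9% in JUNB and 58.1% in CDKN1A. In RPKM, TIMP1 overlapped, at 447 to 590 in libraries labelled ABCF1 and 368 to 456 in those labelled NC-1. TIMP1, an inhibitor of matrix proteases, was at 452 ± 85.3 CPM in libraries labelled ABCF1 and 340 ± 42.3 CPM in those labelled NC-1, and its edgeR adjusted p was 0.29. JUNB was at 416 ± 33.5 CPM in libraries labelled ABCF1 and 341 ± 24.9 CPM in those labelled NC-1. CDKN1A, an inhibitor of the cell cycle, was at 308 ± 9.20 CPM in libraries labelled ABCF1 and 265 ± 9.63 CPM in those labelled NC-1. These genes also answer to many other signals. HAMP, a liver target of BMP signalling, and ID4 had 0 counts in all 6 libraries.

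**Figure D5:**
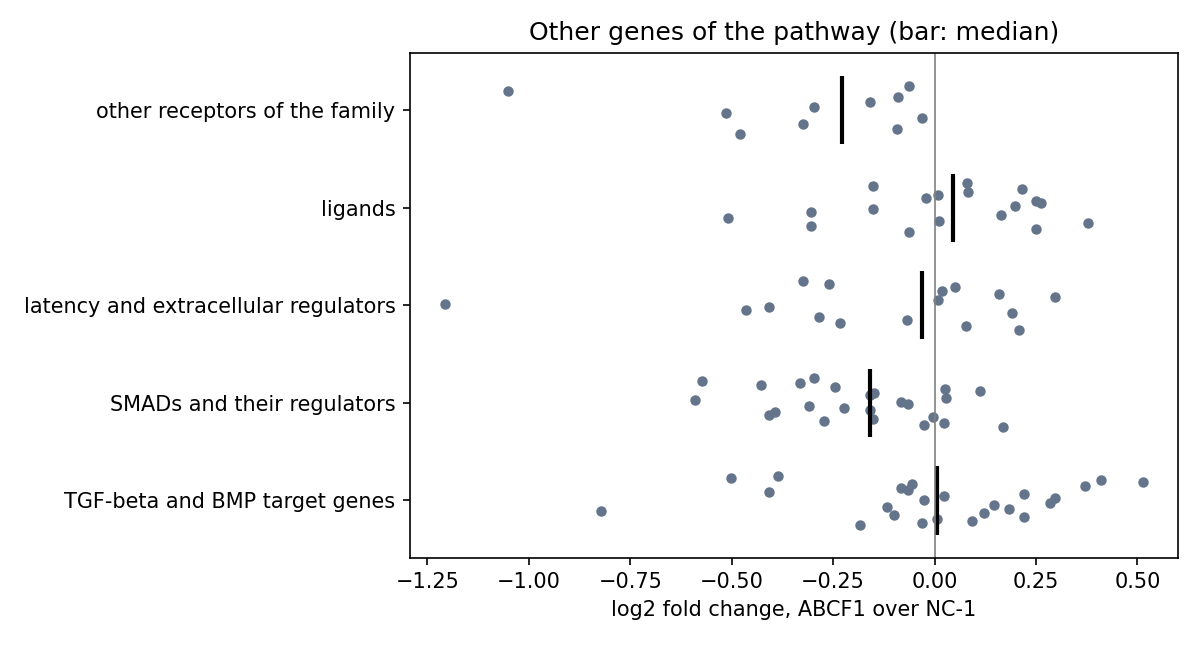
Log2 fold change, ABCF1 over NC-1 (x axis), of each tested gene of the 5 further lists of the pathway (y axis), with a bar at each list's median. All 10 further receptors lie below 0, and the medians run from -0.23 to 0.04. Of all tested genes 50.1% lie above 0. Of those with 50% GC or less 28.7% do, and of those over 50% GC 73.8%. The receptors include genes of both kinds.

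The genes whose CPM ran most like that of ACVRL1 over the 6 libraries were RRP12, MYO1A, ACAP3, ZNF747 and MAFK, with Pearson correlations of 0.99, 0.98, 0.98, 0.98 and 0.98 on log2 values among 12123 genes of 2 CPM or more. Their gaps were smaller, with a ratio of means from 1.02 (ZNF747) to 1.27 (MYO1A) between the libraries labelled ABCF1 and NC-1, against 1.72 for ACVRL1. In all 12123 genes, 170 had a correlation over 0.9. These libraries share the 2 groups and the GC trend, and the values are a description over 6 points. Among the members, ENG had the highest correlation with ACVRL1 (0.85) and TGFBR1 the lowest (-0.61). ENG and TGFBR1 also had the highest and lowest log2 fold changes of the 9 other members (0.18 and -0.36). The ACVRL1 values that chose the gene enter all these correlations, so shared regulation was not tested.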

How the data were processed

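Per the labels' protocols, total RNA was taken up in Trizol and libraries were built with an Illumina TruSeq kit. The authors deposited whole-number gene counts and RPKM (read density, corrected for gene length and depth) for 6 libraries. CASAVA 1.8, Trimmomatic, FastQC, HISAT2, StringTie and edgeR and the build GRCh38 are named, with no roles, in the submitters' processing notes. The annotation and counting settings, strand included, were not given in the sources used here, so reads of antisense partners may be mixed.

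From these deposited counts, edgeR 4.0.16 (R 4.3.3) gave a quasi-likelihood F test of each gene (TMM factors, filterByExpr, two-sided, Benjamini-Hochberg over 16545 genes, called at an adjusted p under 0.05). SE is the fold change over the square root of F. Values in CPM use TMM-adjusted library sizes. Since no label speaks of separate cultures, p-values cover only the spread among the libraries sequenced, possibly technical. No pair of libraries in a group agreed within sampling noise (chi-square per degree of freedom of 11.4 or more). The fit was tested on simulated counts with known changes. Those counts held no library set and no length or GC trend, so that test does not cover either.

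The members and lists were chosen with earlier results of these data known. All 169 listed genes matched. Named were the 10 members, ABCF1, from each further list the 4 genes of highest mean RPKM and any called (1 target gene is not reported here), and the 5 genes of 2 CPM or more most like ACVRL1 on log2(CPM + 0.5). Genes at 0, defining markers and genes called by another tool are named besides, chosen after their values were seen. Alternatives were DESeq2 1.42.0 size factors and Wald test, upper-quartile factors, library size only, other filters, limma 3.58.1 (voom, or trend on log2(RPKM + 1) or log2(RPKM + 0.1), a scale that understates the change of low genes), a replicate block, libraries left out, the library set, and a length and GC offset (mgcv, longest GENCODE 29 transcript).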

Additional observations from a re-analysis of the deposited data

How the results depend on the processing

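The log2 fold change of ACVRL1 was positive in all 19 alternatives, as its choice by this gap already fixes in part. It was 0.24 by limma-trend on log2(RPKM + 1) and 0.49 on log2(RPKM + 0.1), and 0.60 to 0.97 with each library left out in turn. The 0 calls over all genes became 243 higher and 383 lower with the DESeq2 Wald test, 2129 and 2064 with the library set, 950 and 853 without ABCF1 replicate 3 and NC-1 replicate 2, and 832 and 277 with the library set and the length and GC offset. Of the 114 further pathway genes, 87 were tested by edgeR on all 6 libraries. Calls among the 114 in the same settings were 0 and 5, 12 and 16, 6 and 9, and 3 and 1. The shares of all genes called were 2.19% and 3.45%, 12.9% and 12.5%, 5.68% and 5.1%, and 5.09% and 1.69%. ACVR1B turned to -0.00033 with library size only and -0.00036 on log2(RPKM + 0.1), and ran from -0.0079 to 0.22 with each library left out. SMAD3 turned to -0.046 with library size only, -0.031 on log2(RPKM + 1) and -0.035 on log2(RPKM + 0.1), and ran from -0.034 to 0.14 with each library left out. The cause of these changes was not tested. TGFBR1 was called in 3 alternatives, the DESeq2 Wald test, the library set, and without the 2 libraries named above (adjusted p = 0.017). The other 7 members kept their sign in every alternative. ACVRL1 ranked 10 of 10 in level by RPKM and by counts per kilobase of the longest transcript. By counts per kilobase ACVR1 ranked 7 and BMPR1A 8, the reverse of their order in RPKM. The replicate numbers were not taken to pair the libraries, since same-numbered libraries correlated at 0.11, -0.11 and -0.15 in their deviations from the group means, and the replicate block also gave 0 calls, with ACVRL1 at 0.78. ABCF1 replicate 3 correlated best with NC-1 replicate 2 (0.26). At 135 to 332 counts a library, counting error alone gave ACVRL1 the intervals shown above.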
